A study of Rattus norvegicus with 10 samples.

Results

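Plvap, Tmem176a, Tmem176b, Sdc3 and Sdc4 were followed through 4 groups of rat splenic M2 macrophages. The members were chosen by their measured rise in EV+ over EV- libraries, that is in macrophages that had taken up stem cell vesicles against those of the same treatment that had not, and all 5 genes were present among the 9003 genes of the table. The macrophages came from rats of the strain WKY /Ncrj and were collected by flow cytometry after enrichment with an antibody to CD11b/c. Control macrophages (n = 2) came from rats in the physiological condition and GN macrophages (n = 2) from rats with glomerulonephritis that received no cells. Glomerulonephritis was induced with a mouse monoclonal antibody to the glomerular basement membrane. The EV+ (n = 3) and EV- (n = 3) macrophages came from rats with the same nephritis that were given human adipose-derived mesenchymal stem cells (ASCs). The membranes of these ASCs had been stained with the dye DiD, and macrophages carrying the dye were sorted as EV+ and those without it as EV-. All nephritis groups therefore share the antibody, and EV+ and EV- also share the ASC treatment. The EV- macrophages are not untreated cells, and DiD reports membrane that was taken up, whether by vesicles or in another way. The labels give no age of the rats, no sampling day and no number of rats per library.

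The 5 genes encode membrane proteins of 3 kinds. Plvap encodes plasmalemma vesicle-associated protein, which forms the diaphragms of endothelial fenestrae and caveolae and is mostly known from blood vessels. Tmem176a and Tmem176b encode related membrane proteins with several membrane-spanning segments that resemble the MS4A family. They are known from dendritic cells and other myeloid cells. Sdc3 and Sdc4 encode syndecans, which are cell-surface proteoglycans whose heparan sulfate chains bind growth factors, chemokines and matrix. The cytoplasmic tails of syndecans bind syntenin, an adaptor that is also known from vesicle formation.

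The sequences upstream of the start sites are shown because Tmem176a and Tmem176b moved together in all libraries and are neighbours transcribed away from each other. They are the 250 bases before the start site in RefSeq's annotation of the GRCr8 build, whereas the reads had been aligned to rn6. All 5 genes had an entry. The windows are chr16:18231280-18231529 on the minus strand for Plvap, chr4:79105569-79105818 on the plus strand for Tmem176a, chr4:79105264-79105513 on the minus strand for Tmem176b and chr3:173592924-173593173 on the minus strand for Sdc4. Capitals mark matches, on either strand, to motifs chosen with these sequences in view.
Plvap: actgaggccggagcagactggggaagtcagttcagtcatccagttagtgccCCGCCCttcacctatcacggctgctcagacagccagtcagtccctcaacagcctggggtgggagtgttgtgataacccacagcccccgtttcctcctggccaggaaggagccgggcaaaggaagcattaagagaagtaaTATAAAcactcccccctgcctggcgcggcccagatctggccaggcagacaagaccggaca
Tmem176a: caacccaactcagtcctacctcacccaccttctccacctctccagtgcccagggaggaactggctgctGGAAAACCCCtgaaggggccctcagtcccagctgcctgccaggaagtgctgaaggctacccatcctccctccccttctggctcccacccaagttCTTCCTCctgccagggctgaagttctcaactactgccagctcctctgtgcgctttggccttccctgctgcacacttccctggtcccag
Tmem176b: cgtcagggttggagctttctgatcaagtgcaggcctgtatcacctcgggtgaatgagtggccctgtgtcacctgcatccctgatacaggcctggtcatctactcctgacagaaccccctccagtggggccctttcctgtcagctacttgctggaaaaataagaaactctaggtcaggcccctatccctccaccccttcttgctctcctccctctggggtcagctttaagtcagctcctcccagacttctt
Sdc4: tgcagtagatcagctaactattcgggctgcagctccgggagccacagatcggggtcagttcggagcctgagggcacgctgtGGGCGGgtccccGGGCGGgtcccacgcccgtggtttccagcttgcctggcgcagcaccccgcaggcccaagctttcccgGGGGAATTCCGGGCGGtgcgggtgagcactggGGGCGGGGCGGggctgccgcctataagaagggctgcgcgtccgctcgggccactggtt

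The start sites of Tmem176b and Tmem176a lay 556 bases apart on opposite strands. Of 16845 promoters on the plus strand, 10.9% had a minus-strand start within 1000 bases upstream. The annotated spans of these 2 genes overlap in GRCr8. Whether their exons overlap, or overlap in the annotation used for counting, was not examined. The library kit does not mark strand, so strand cannot assign reads from an overlapping part. How such reads were counted or left out is not known. The windows were searched for 6 motifs on both strands. Of core promoter elements these were the TATA box, written TATAAA, and the GC box to which Sp1 binds, written GGGCGG. For the myeloid factor PU.1 the letters were GAGGAAG. For the stress-responsive factor AP-1 the letters TGANTCA were used. The E-box of basic helix-loop-helix factors was searched as CACGTG, and NF-kB by its consensus motif. Plvap held TATAAA, with its first base at -60 from the start site, and TATAAA occurred in 12.9% of 33469 promoters. Tmem176a held a match to GAGGAAG at -88, which occurred in 10.2% of promoters, and a match to the NF-kB motif at -182. Sdc4 held a match to the NF-kB motif at -90, and this motif occurred in 3.54% of promoters. GGGCGG was matched 5 times in Sdc4, 4 times in Sdc3 and 1 time in Plvap, against 30.5% of promoters with any match, and 2 of the matches in Sdc4 overlap by a base. The window of Tmem176b held none of the 6 motifs. G and C made up 80.0% of the Sdc3 and 70.0% of the Sdc4 window, 59.2% of that of Plvap, 61.2% of that of Tmem176a and 55.2% of that of Tmem176b, with a median of 51.2% over all promoters. A match is a description of letters only.

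Levels are given as CPM, that is reads of a gene relative to the total of its library, scaled by the trimmed mean of M-values (TMM), with the SD over a group's libraries. The 9003 genes held between 19270515 and 26617093 reads per library, and 3 reads, taken as the floor of detection, corresponded to between 0.113 and 0.153 CPM. No 2 libraries of a group were duplicates, since their reads differed with a chi-square over its degrees of freedom of 13.4 to 45.4. Macrophage identity was checked with 18 markers, of which 15 were in the table. Their summed level lay between 26094 and 26430 CPM in control and between 30055 and 32341 CPM in the nephritis groups. Lyz2 alone made up most of each sum, with means of 15719 CPM in control, 19720 in GN, 19127 in EV- and 19175 in EV+. Csf1r, the receptor for the main macrophage growth factor, had between 5800 and 8155 CPM, and the lysosomal protein gene Cd68 between 1163 and 1466 CPM. Cd163 and Mrc1, surface receptors often used to mark M2 macrophages and singled out here after their values were seen, stayed at or below 1.81 CPM in all 10 libraries and at 0 in some. Clec10a stayed at or below 1.54 CPM, and C1qa, C1qb and C1qc had between 1.75 and 11.2 CPM. For such bulk libraries, a higher share of cells that express a gene and more of its RNA per cell cannot be told apart.

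Plvap was highest in GN and lowest in EV- macrophages. It had 108 and 82.0 CPM in the control libraries, 183 and 163 CPM in GN, 85.5, 68.1 and 72.3 CPM in EV- replicates 1, 2 and 3, and 147, 122 and 124 CPM in the EV+ replicates. All EV+ libraries lay above all EV- and all control libraries and below both GN libraries, whereas the EV- and control values overlapped. Control macrophages averaged 94.8 ± 18.2 CPM (SD, n = 2), GN macrophages 173 ± 14.0 CPM (n = 2), EV- macrophages 75.3 ± 9.06 CPM (n = 3) and EV+ macrophages 131 ± 13.5 CPM (n = 3).

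Tmem176a and Tmem176b rose in GN and stayed above control in both ASC-treated groups. Tmem176a had 132 and 140.1 CPM in control, 224 and 251 CPM in GN, 178, 167 and 199.6 CPM in EV- and 234, 204 and 243 CPM in EV+. Tmem176b had 200.4 and 204.9 CPM in control, 341 and 376 CPM in GN, 254, 253 and 267 CPM in EV- and 350.5, 311 and 356 CPM in EV+. For both genes every control library lay below every other library and every EV- library lay below every EV+ and GN library, while the EV+ and GN values overlapped.

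Sdc3 was low in all groups and near or below the floor of detection in the EV- libraries. It had 0.770 and 0.990 CPM in control, 2.13 and 1.73 CPM in GN, 0.194, 0 and 0 CPM in EV- and 3.56, 0.842 and 2.23 CPM in EV+. These values rested on 44 reads in control, 100 in GN, 4 in EV- and 161 in EV+ over each group's libraries. All EV- libraries were below all others, and EV- replicate 1 alone had reads above 0. A count of 0 allowed up to 0.153 CPM in EV- replicate 2 and 0.117 CPM in EV- replicate 3. The EV+ libraries spread over 0.842 to 3.56 CPM and overlapped with control and GN.

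Sdc4 was lowest in EV- macrophages and spread widely in control and GN. It had 9.86 and 5.86 CPM in control, 11.1 and 4.33 CPM in GN, 2.53, 3.87 and 1.67 CPM in EV- and 6.68, 3.83 and 5.67 CPM in EV+. The EV- libraries lay below both control and both GN libraries. EV+ replicate 2 was slightly below EV- replicate 2, so unlike the other 4 members the EV+ and EV- values of Sdc4 overlapped.

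**Figure D1:**
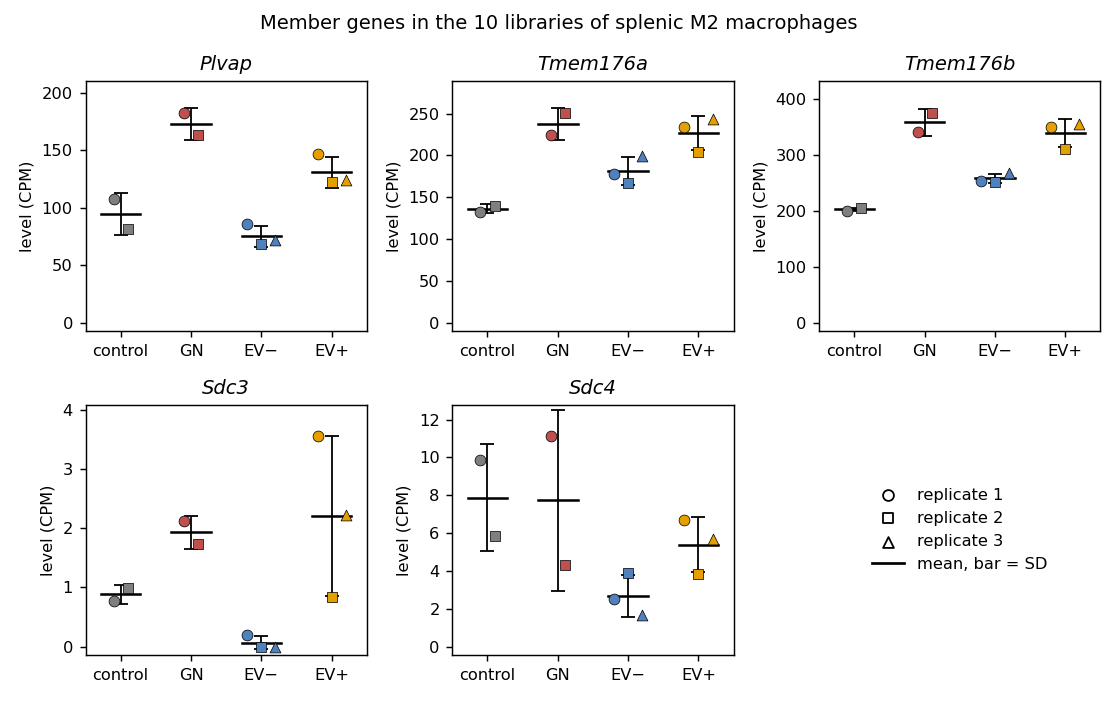
Level in TMM-scaled CPM (linear axis) of each member in the 10 libraries by group, with markers for the replicate numbers, a line at the group mean and bars of 1 SD. Plvap, Tmem176a, Tmem176b and Sdc3 were lower in every EV- library than in every GN and EV+ library, and EV+ and EV- overlapped for Sdc4.

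Because the members were named for their rise in EV+ over EV-, that difference is given as a description with no test. On the log2(CPM + 1) scale, EV+ exceeded EV- by 0.79 (SE 0.116) for Plvap, 0.32 (SE 0.0877) for Tmem176a, 0.39 (SE 0.0713) for Tmem176b, 1.501 (SE 0.303) for Sdc3 and 0.81 (SE 0.315) for Sdc4. The ratio of the group means was 1.74 for Plvap, 1.25 for Tmem176a, 1.31 for Tmem176b and 2.004 for Sdc4. The pseudocount of 1 compresses the difference of the low Sdc3. In 4.25% of all genes the EV+ libraries were all above the EV- libraries, as in 4 of the 5 members, and the choice of members fixes that count. Markers of cytotoxic lymphocytes were higher in the EV- libraries. The 16 NK and T cell markers in the table summed to between 513 and 1185 CPM in EV-. In EV+ they summed to between 430 and 571 CPM, and 2 of the 16 had a higher mean log2 value there. Cd8a, Klrk1 and Cd8b made up most of the EV+ sum. Their means were 302, 112 and 70.2 CPM in EV- and 299, 115 and 73.9 CPM in EV+. Prf1, Nkg7 and Gzma, singled out after their values were seen, differed more. Their means were 137, 30.3 and 19.9 CPM in EV- and 11.98, 3.07 and 1.65 CPM in EV+, with no overlap. Prf1 spread from 24.5 to 335 CPM in EV- and reached 18.4 CPM in EV+. The part of the 16 markers in the differences of the members was not tested. When EV- replicate 1, where these markers were highest, was left out, EV+ exceeded EV- by 0.89 for Plvap, 0.31 for Tmem176a, 0.38 for Tmem176b, 1.59 for Sdc3 and 0.80 for Sdc4. The remaining EV- libraries still exceeded all EV+ libraries in Prf1, Nkg7 and Gzma, so this removal cannot separate the part of the markers.

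The same differences placed the groups against GN and control. Against GN, EV+ differed by -0.40 for Plvap, -0.07 for Tmem176a, -0.08 for Tmem176b, 0.04 for Sdc3 and -0.36 for Sdc4. EV- differed from GN by -1.19, -0.39, -0.47, -1.46 and -1.17 in the same order of genes. These comparisons share the GN libraries and hold the EV+ or EV- libraries that named the members, so they carry no test. All 5 members were lower in every EV- library than in both GN libraries, as were 12.8% of all genes, and Plvap alone was lower in every EV+ library than in both GN libraries, as were 11.8% of all genes. In Plvap, Tmem176a, Tmem176b and Sdc3, but not in Sdc4, GN lay above control, EV- below GN and EV+ above EV- with no overlap, an order seen in 107 genes (1.19%) of the table and partly fixed by the choice of members.

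Whether the members changed with nephritis itself was tested, since they were named for EV+ against EV- and not for GN against control. Earlier results of these data were known when the members and tests were chosen, and the fit took its spread from all 4 groups. Plvap rose in GN by a log2 difference of 0.87 (SE 0.142, adjusted p = 0.00829 by limma with Benjamini-Hochberg adjustment over 9003 genes). Tmem176a rose by 0.80 (SE 0.107, adjusted p = 0.00287 by limma) and Tmem176b by 0.82 (SE 0.0874, adjusted p = 0.000435 by limma). As ratios of group means, GN was 1.82 times control for Plvap, 1.75 times for Tmem176a and 1.77 times for Tmem176b. Sdc3 differed by 0.64 (SE 0.371, adjusted p = 0.614) and Sdc4 by -0.10 (SE 0.386, adjusted p = 0.962), and neither passed the threshold of 0.1. Thus 3 of the 5 members were called higher in GN, against 0.933% of all genes tested (1.75% in either direction). The GN libraries lay above control without overlap in 4 of the 5, Sdc4 being the exception, and in 21.9% of all genes. Without GN replicate 1 the adjusted p of Plvap was 0.124, where the lone GN library was assumed to vary like the other groups. The difference of Sdc3 was 1.05 with a pseudocount of 0.1 and 1.13 in edgeR and DESeq2, with no call. The direction of Sdc4 was set by single libraries, at 0.23 without control replicate 1 and 0.49 without GN replicate 2.

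The mean of the EV+ and EV- libraries, which does not depend on the difference between them, was compared with GN. This mean weighs both groups equally, whatever their share of the cells, so it is not the level of all macrophages after ASC treatment. Plvap fell by 0.80 on the log2 scale (SE 0.116, adjusted p = 0.00738 by limma), and all 6 EV+ and EV- libraries lay below both GN libraries, as in 5.61% of all genes. None of the other 4 passed, at -0.23 for Tmem176a (SE 0.0877, adjusted p = 0.501), -0.28 for Tmem176b (SE 0.0713, adjusted p = 0.242), -0.71 for Sdc3 (SE 0.303, adjusted p = 0.549) and -0.76 for Sdc4 (SE 0.315, adjusted p = 0.544). Thus 1 of the 5 members was called lower, against 0.333% of all genes (0.422% in either direction). The call of Plvap was lost without limma's intensity trend (adjusted p = 0.126) and without GN replicate 1 (adjusted p = 0.314). Tmem176b passed on the recovered reads with DESeq2 (adjusted p = 0.0405) and edgeR's likelihood-ratio test (adjusted p = 0.0963), and Sdc3 with the latter alone (adjusted p = 0.0326). The difference of Sdc3 was -1.92 with a pseudocount of 0.1 and -2.38 in DESeq2. That of Sdc4 was -0.17 without GN replicate 1 and -1.35 without GN replicate 2.

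Against control, the mean of EV+ and EV- was higher by 0.57 for Tmem176a (SE 0.0877, adjusted p = 0.00243 by limma) and by 0.54 for Tmem176b (SE 0.0713, adjusted p = 0.000671 by limma). All 6 libraries exceeded both control libraries for both genes, as in 8.14% of all genes. The differences of Plvap (0.07, adjusted p = 0.822), Sdc3 (-0.07, adjusted p = 0.940) and Sdc4 (-0.86, adjusted p = 0.190) did not pass. The 2 members called higher stand against 2.33% of all genes (4.87% in either direction). By edgeR's likelihood-ratio test the fall of Sdc4 had an adjusted p of 0.0891. The difference of Sdc3 was -0.86 with a pseudocount of 0.1, -1.20 in edgeR and -1.25 in DESeq2, with no call, and that of Sdc4 was -0.53 without control replicate 1. The signs of Plvap and Sdc3 were not stable, at -0.12 for Plvap and 0.01 for Sdc3 without control replicate 2 and at 0.10 for Sdc3 without EV+ replicate 2.

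**Figure D2:**
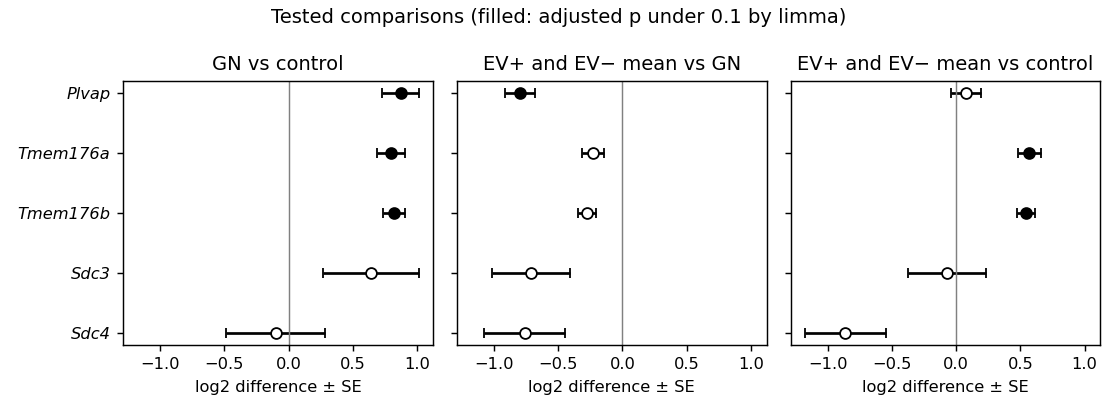
Log2 difference of CPM + 1 with its SE (bars) for each member in the 3 tested comparisons, with filled points for adjusted p under 0.1 by limma. Plvap and the Tmem176 pair rose in GN, Plvap alone was called in the mean of EV+ and EV- against GN, and the Tmem176 pair alone was called against control.

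Tmem176a and Tmem176b kept nearly the same proportion in every library. The ratio of Tmem176b to Tmem176a CPM, which is not a ratio of molecules because the transcripts differ in length, ran from 1.34 in EV- replicate 3 to 1.52 in GN replicate 1 and EV+ replicate 2. Over the 10 libraries the log2 values of the pair had a Pearson r of 0.985, and their ranks were the same in all libraries. After each group's mean was subtracted, r was 0.923. These values describe 10 libraries of 4 groups, and the part of reads from any overlap of the genes was not tested. The other pairs of members were less alike. Before the subtraction, their r ran from -0.09 for Tmem176a and Sdc4 to 0.856 for Plvap and Sdc3. With group means subtracted, Plvap had r of -0.09 with Tmem176a, -0.07 with Tmem176b and 0.485 with Sdc4. Sdc3 had r of 0.45 with Tmem176a, 0.58 with Tmem176b, 0.45 with Plvap and 0.42 with Sdc4. For Sdc4, r was -0.43 with Tmem176a and -0.25 with Tmem176b.

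**Figure D3:**
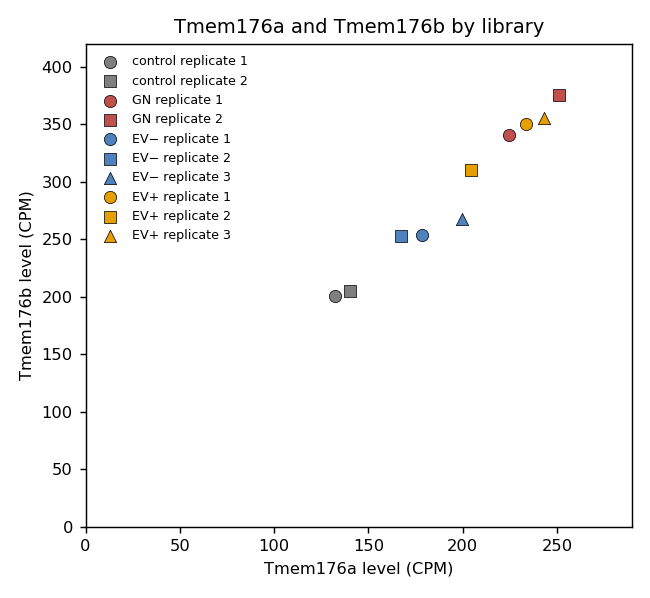
Tmem176b against Tmem176a, both in TMM-scaled CPM on linear axes from 0, with 1 point per library. The points run close to a line, with control lowest, EV- in between and EV+ and GN highest, and the ratio lies between 1.34 and 1.52.

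Plvap is best known from endothelium, so 26 endothelial markers were examined beside it. Of these, 4 were in the table, none was called in any of the 3 tested comparisons by limma, edgeR or DESeq2, and the other 22, with Cdh5, Kdr, Vwf and Cldn5 among them, were not analysed here. Tie1, a receptor of endothelial cells, had between 8.20 and 15.7 CPM, and Eng, a co-receptor for TGF-β that activated macrophages also carry, between 5.98 and 14.8 CPM. Esam had up to 1.34 CPM and 0 in EV+ replicate 1, and Rasip1 up to 1.99 CPM. The summed level of the 4 markers was between 20.0 and 21.6 CPM in control, 28.9 and 32.5 CPM in GN, 19.0 and 22.1 CPM in EV-, and 26.2 and 30.0 CPM in EV+, and the GN and EV+ sums lay above the control and EV- sums. Tie1 and Eng made up most of each sum. Rasip1 averaged 1.29 CPM in EV- and 1.52 CPM in EV+ with overlapping libraries, and Esam went the other way, with 0.470 CPM in EV- and 0.206 CPM in EV+. Eng differed by 0.63 (adjusted p = 0.299) between GN and control and by -0.52 (adjusted p = 0.425) between the mean of EV+ and EV- and GN, and for Tie1 the values were 0.43 (adjusted p = 0.477) and -0.13 (adjusted p = 0.898). At an unadjusted p under 0.05, 2 of the 4 passed in GN against control (10.4% of all genes), 1 in the mean of EV+ and EV- against GN (8.23% of all genes) and 0 in that mean against control (15.7% of all genes). The part of endothelial RNA in the differences of Plvap was not tested.

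**Figure D4:**
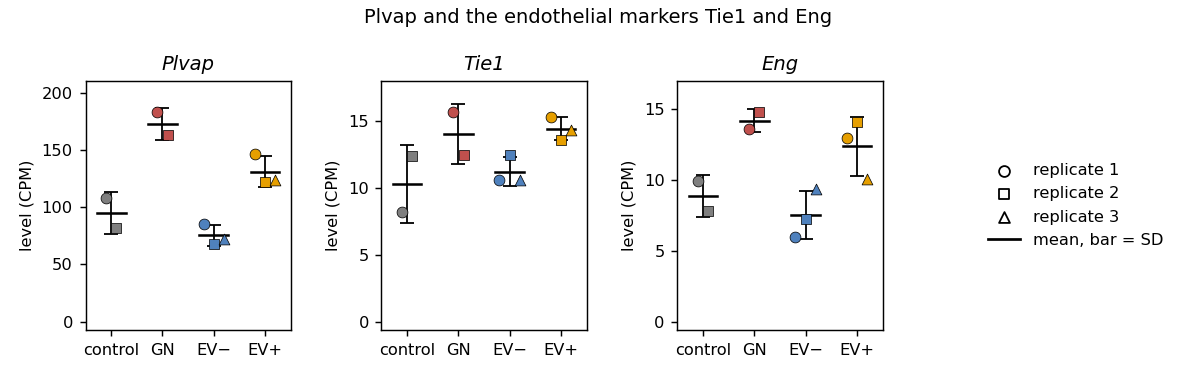
Level in TMM-scaled CPM (linear axes) of Plvap, Tie1 and Eng in the 10 libraries by group, with the mean and bars of 1 SD. In each of these genes both GN libraries lie above both control libraries and the EV+ mean lies above the EV- mean, and the EV+ and EV- values do not overlap.

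Around Plvap, 9 of 16 genes of caveolae, fenestrae and the VEGF pathway were in the table, and none passed in any comparison by limma. At an unadjusted p under 0.05, 3 of the 9 passed in GN against control (10.4% of all genes), 0 in the mean of EV+ and EV- against GN (8.23%) and 3 in that mean against control (15.7%). The likelihood-ratio test of edgeR called 1 in GN while its quasi-likelihood test and DESeq2 called none. The most abundant were Ehd4, an ATPase of membrane recycling, with between 1074 and 1185 CPM, and Nrp1, a co-receptor for VEGF and semaphorins, with between 997 and 1229 CPM. In GN against control Ehd4 differed by -0.09 (adjusted p = 0.732) and Nrp1 by 0.05 (adjusted p = 0.904). The 3 genes with an unadjusted p under 0.05 there were Nrp2, Cav2 and Ehd1. They rose by 0.72, 0.86 and 0.36 (adjusted p = 0.184, 0.369 and 0.326 by limma). Mean levels of Nrp2 were 8.92 CPM in control, 15.0 in GN, 11.3 in EV- and 15.4 in EV+. Of the 9 genes, 6 had a positive difference in GN against control. The median log2 difference of the 9 genes was 0.20 in GN against control and -0.10 in the mean of EV+ and EV- against GN, with medians of all genes of -0.00014 and -0.0074. Of 14 genes of the MS4A family, to which the Tmem176 proteins are similar, 2 were in the table. Ms4a8 had between 1.89 and 4.78 CPM and Ms4a1, which encodes the B cell antigen CD20, between 0.153 and 1.72 CPM, and neither passed in any comparison by limma. For Ms4a8 GN exceeded control by 0.82 (adjusted p = 0.121). At an unadjusted p under 0.05, 1 of the 2 passed in GN against control (10.4% of all genes) and in the mean of EV+ and EV- against control (15.7%) and 0 in that mean against GN (8.23%), and DESeq2 and edgeR's likelihood-ratio test called 1 in GN.

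The genes that build, carry and bind the heparan sulfate of syndecans were examined beside Sdc3 and Sdc4. Of 25 genes of heparan sulfate synthesis and editing, 16 were in the table, and none passed by limma in GN against control or in the mean of EV+ and EV- against GN. At an unadjusted p under 0.05, 3 and 1 passed there, against 10.4% and 8.23% of all genes. In GN against control edgeR's likelihood-ratio test called 2, DESeq2 1 and the quasi-likelihood test 0. Against control 1 of the 16 rose in the mean of EV+ and EV-, where 2.33% of all genes were called higher. It was Hs6st1, which adds sulfate to heparan sulfate chains (0.71, SE 0.175, adjusted p = 0.0463 by limma), with 5.94 ± 1.52 CPM in control, 10.3 ± 2.43 in GN, 10.5 ± 0.814 in EV- and 9.96 ± 0.964 in EV+. Of 14 other cell-surface and heparan sulfate proteoglycans, 5 were in the table and 1, Tgfbr3, rose in the mean of EV+ and EV- against control (0.74, SE 0.203, adjusted p = 0.0737 by limma). Tgfbr3, the betaglycan co-receptor for TGF-β, had 2.15 ± 0.122 CPM in control, 2.98 ± 0.475 in GN, 4.401 ± 0.572 in EV- and 4.20 ± 1.07 in EV+. Sdc1, the other syndecan analysed, was singled out after its values were seen. It had 0.615 ± 0.706 CPM in control, 1.29 ± 0.178 in GN, 2.49 ± 1.65 in EV- and 2.78 ± 1.10 in EV+. Unlike Sdc3 and Sdc4, it was lowest in control. Its mean of EV+ and EV- exceeded control by 1.17 (SE 0.353, adjusted p = 0.105 by limma), which did not pass. The quasi-likelihood test of edgeR called 0 of the 5 against control, and DESeq2 and the likelihood-ratio test 2. In the other 2 comparisons 0 passed, also at an unadjusted p under 0.05 and by edgeR and DESeq2.

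Of 20 partners and sheddases of the syndecans, 15 were in the table. Vcl, which encodes the focal adhesion protein vinculin, rose in GN against control by 0.97 (SE 0.211, adjusted p = 0.0452 by limma) and in the mean of EV+ and EV- against control by 0.89 (SE 0.173, adjusted p = 0.0120 by limma). It had 14.1 ± 3.35 CPM in control, 28.2 ± 0.743 in GN, 27.6 ± 6.30 in EV- and 26.1 ± 3.84 in EV+. Actn4, an actin cross-linking protein, also rose against control (0.26, SE 0.0748, adjusted p = 0.0820 by limma). By limma the other 13 did not pass against control and the other 14 did not pass in GN. Of all genes, 2.33% were called higher against control and 0.933% in GN. The likelihood-ratio test of edgeR called 2 of the 15 in GN, and its quasi-likelihood test called 1 against control. None of the 15 passed by limma in the mean of EV+ and EV- against GN, where 1 had an unadjusted p under 0.05, DESeq2 called 1 and edgeR 0. Sdcbp, which encodes syntenin and was singled out after its values were seen, had 809 ± 11.9 CPM in control, 829 ± 18.6 in GN, 869 ± 8.13 in EV- and 893 ± 7.81 in EV+ (0.12 for the mean of EV+ and EV- against control, adjusted p = 0.290).

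The genes whose levels ran most like the mean z-score of the 5 members over the 10 libraries were ranked among those with a mean of at least 5 CPM. The 10 highest had a Pearson r between 0.879 and 0.939 (Spearman's rho between 0.818 and 0.939), which describes 10 libraries in 4 groups and carries no test. In order they were Lpl (lipoprotein lipase), Tfec (a transcription factor of the MiT family), Pltp (phospholipid transfer protein), Cxcl16 (a transmembrane chemokine), Slc2a6 (a member of the glucose transporter family), Trim46, RT1-Da (an MHC class II chain), Serpinb1a (an inhibitor of serine proteases), Icmt (a methyltransferase of prenylated proteins) and Tnfaip2. Lpl had means of 38.7 CPM in control, 92.2 in GN, 40.3 in EV- and 65.5 in EV+. Pltp had means of 3.89, 14.9, 2.33 and 8.22 CPM in the same groups, and RT1-Da of 106, 300.2, 90.9 and 163 CPM.

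Single members had other nearest genes. Pltp (r = 0.948), Lpl (r = 0.919) and Icmt (r = 0.918) were nearest to Plvap. Lims1, Ptafr and Phyhd1 (r between 0.931 and 0.937) were nearest to Tmem176a, and Cdipt, Mfsd1 and Ino80c (r between 0.916 and 0.934) to Tmem176b. Eif2b2, Tfec and Itm2c (r between 0.878 and 0.911) were nearest to Sdc3, and Tmem242, Nfkbie and Smox (r between 0.845 and 0.874) to Sdc4. Tfec appeared both for Sdc3 and for the mean of the members, and Pltp, Lpl and Icmt both for Plvap and for that mean.

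**Figure D5:**
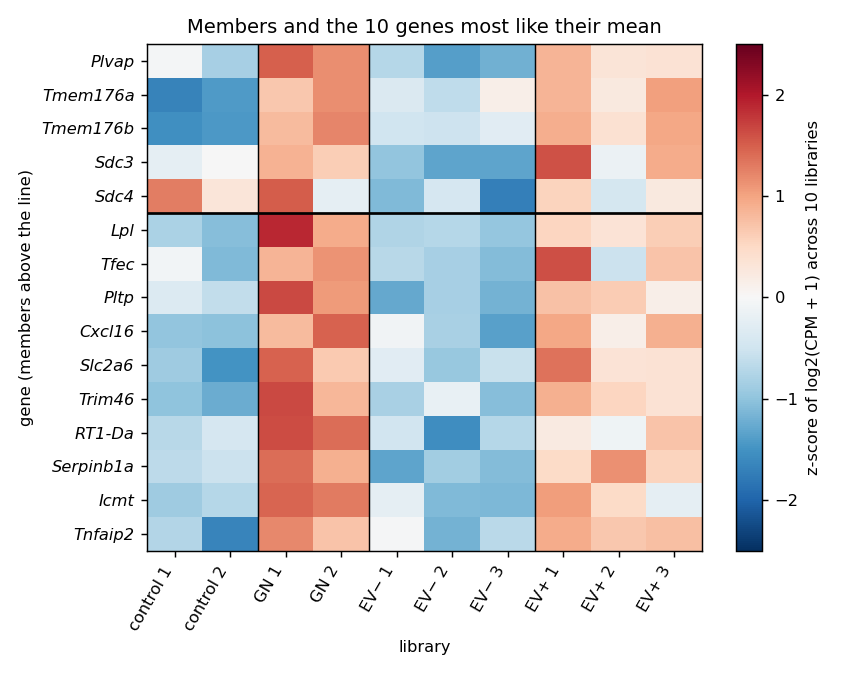
Z-scores of log2(CPM + 1) over the 10 libraries (colour scale, red high and blue low) for the 5 members above the line and the 10 genes most like their mean below it. In the 10 genes every GN library lies above the mean of the gene and every EV- library below it, some of them close to it. Among the members, Sdc4 lies above its mean in control and below it in GN replicate 2. Tmem176a lies above its mean in EV- replicate 3, and the Tmem176 pair is lowest in control.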

How the data were processed

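Splenic M2 macrophages were sequenced as paired-end reads in 10 libraries (SMART-Seq v4 and Nextera XT). The authors aligned the reads to rn6 with STAR (version 2.5.3), counted those on RefSeq genes with HTSeq (version 0.6.0, intersection-strict), removed genes whose maximum CPM was under 1 and applied TMM normalization in edgeR. The deposited values are this normalised signal. All values (100%) were whole multiples of a step fixed for each library, within a tolerance of 0.01 reads, so reads were recovered. Of the symbols, 18 had been turned into dates and were not named. Some genes were not analysed here, and the result of 1 listed marker is not reported here.

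Groups followed the labels. The main test was limma (version 3.58.1, R version 4.3.3) on log2(CPM + 1) with an intensity trend, with the 4 groups fitted together (6 residual degrees of freedom). Adjustment was by Benjamini-Hochberg over the 9003 genes, with calls at an FDR under 0.1. Fits on recovered reads used edgeR (version 4.0.16) and DESeq2 (version 1.42.0). The procedure was tested on simulated data. The members, gene lists, tests and alternatives were chosen with earlier results of these data known.

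The genes named are the 5 members, the genes of each list past the threshold (the 3 with the smallest p where there were more, and the 2 to 4 most abundant where there were none), and the genes most like the members. Same-numbered EV+ and EV- libraries deviated together (r of 0.203, 0.295 and 0.122 over genes), although the labels do not state a pairing. For control and GN, r was 0.0878. The main fit did not use a pairing and took all libraries as independent. Fits with the replicate number as a block or with same-numbered EV+ and EV- libraries averaged, given below, used the pairing. Figures used matplotlib (version 3.10.9).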

Additional observations from a re-analysis of the deposited data

How the results depend on the processing

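The rise of Tmem176a and Tmem176b in GN and in the mean of EV+ and EV- against control passed under all alternatives run. These were a pseudocount of 0.1, no intensity trend, a filter of 1 CPM in 2 libraries, edgeR, DESeq2, RLE size factors, the replicate block, fits restricted to the libraries of a comparison and the removal of each library. With the replicate number as a block, 205, 55 and 488 genes were called in GN against control, the mean of EV+ and EV- against GN and the same mean against control, against 158, 38 and 438 without it, and the paired fit changed no call of a member. Averaging same-numbered EV+ and EV- libraries, an alternative chosen after seeing the data, gave 39 and 392 genes in the latter 2 comparisons and changed no call of a member. Without the intensity trend the 3 counts were 60, 4 and 267, no member was called against GN, and Plvap stood at -0.80 (adjusted p = 0.126). By edgeR's likelihood-ratio test 292 and 94 genes were called in the first 2 comparisons, with 3 members against GN, where Tmem176b was at -0.28 and Sdc3 at -2.33, and Sdc4 was at -1.05 against control. By DESeq2 the counts were 294 and 87, with 2 members and Tmem176b at -0.28. The difference of Sdc3 between EV+ and EV- was 3.80 with a pseudocount of 0.1, 5.05 in both edgeR fits and 5.16 in DESeq2, since the pseudocount of 1 compresses low values. Leaving out single libraries gave between 34 and 214 genes in GN against control, between 3 and 47 in the mean of EV+ and EV- against GN with 0 to 1 members called, and between 120 and 556 against control. Plvap then lay between 0.675 and 1.07 in GN against control and between -0.88 and -0.71 in the mean against GN. Signs turned for Sdc4 in GN against control (-0.69 to 0.49, with 0.23 without control replicate 1), Plvap in the mean against control (-0.12 to 0.27) and Sdc3 in the same comparison (-0.22 to 0.10 on the log2(CPM + 1) scale, with 0.01 without control replicate 2). Apart from the pseudocount, the cause was not tested. At this depth Sdc3 rested on few reads, and 2 or 3 libraries per group limit the precision of all members.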

Other observations

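Markers of other cell types were fixed as lists beside the members. Of 18 macrophage markers 15 were in the table. In GN against control Itgam (0.57, adjusted p = 0.0126 by limma) and Cd14 (0.65, adjusted p = 0.0998 by limma) rose. In the mean of EV+ and EV- against control 5 rose, with Itgam (0.48, adjusted p = 0.00487) and Adgre1 (0.33, adjusted p = 0.0325) among them. Of all genes, 0.933% were called higher in GN and 2.33% in that mean against control (1.75% and 4.87% in either direction). At an unadjusted p under 0.05, 8 of the 15 passed in GN against control (10.4% of all genes). In the mean of EV+ and EV-, 3 passed against GN (8.23% of all genes) and 6 against control (15.7% of all genes). Hemoglobin transcripts were higher in nephritis. Of 12 erythroid and platelet markers, Hbb and Hba1 were in the table and both rose in GN, by 1.35 (adjusted p = 0.0239) and 1.43 (adjusted p = 0.0439) by limma, and Hbb also rose in the mean of EV+ and EV- against control (0.94, adjusted p = 0.0310). Their summed level was between 1.19 and 1.61 CPM in control, 6.44 and 7.26 CPM in GN, 3.72 and 6.30 CPM in EV-, and 3.28 and 4.80 CPM in EV+, and their part in the rise of Plvap and the Tmem176 genes was not tested. Of 12 B and plasma cell markers 7 were in the table and Cd79b fell in GN by 0.85 on the log2 scale (adjusted p = 0.0331) and by 0.49 in the mean of EV+ and EV- against control (adjusted p = 0.0898).

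Of 18 NK and T cell markers 16 were in the table, and Cd8a (0.58, adjusted p = 0.00608) and Cd8b (0.29, adjusted p = 0.0823), which rat macrophages can also express, rose in the mean of EV+ and EV- against control. Of 11 neutrophil markers 7 were in the table and Csf3r rose in the same comparison (0.35, adjusted p = 0.0161). In that comparison 2.33% of all genes were called higher. None of the 9 dendritic cell markers in the table (of 13) and none of the 3 stromal markers (of 13; Nt5e, Pdgfrb and Col3a1) passed in any of the 3 comparisons by limma, edgeR or DESeq2. At an unadjusted p under 0.05, 3, 1 and 1 dendritic cell markers and 0, 1 and 0 stromal markers passed in GN against control, the mean of EV+ and EV- against GN and that mean against control, where 10.4%, 8.23% and 15.7% of all genes did. The dendritic cell markers in the table summed to between 141 and 175 CPM over the 10 libraries, with Irf8 and Zbtb46 the most abundant, and the stromal markers to between 12.5 and 24.0 CPM.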
